A study of Bos taurus with 12 samples.

Results

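The high methylated eluate of longissimus muscle DNA was compared between tender and tough beef of Angus cattle. It is represented by 4 of the 12 MBD-seq libraries of the study, HTE_1 and HTE_2 from tender beef and HTO_1 and HTO_2 from tough beef. The animals were contemporaneous steers kept on 1 diet and slaughtered at around 12 months of age. The tender animals were taken from those with the lowest Warner-Bratzler shear force, the force needed to cut the cooked meat, and the tough animals from those with the highest. Each group was 2 animals with 1 library each, and no treatment or genotype other than the breed was given. Peaks of the 4 lists that shared 1 bp or more were joined into regions on chromosomes 1 to 29 (build bosTau8), which gave 16879 regions, of 74459 when the lists of all 12 libraries were joined in the same way.

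DNA methylation in mammals is the addition of a methyl group to cytosine, mostly where a cytosine is followed by a guanine (CpG). In MBD-seq, sheared DNA is bound by the methyl-CpG binding domain of a protein on beads, and fragments that carry more methylated CpGs are held more tightly, so that elution in steps of salt separates the fragments by the density of their methylated CpGs. The eluate analysed here was labelled high gradient and is the one the study named high methylated. A peak in such a library marks a place where captured fragments pile up. It gives neither the share of methylated molecules nor a single cytosine's state. Muscle holds myofibres, fat cells, fibroblasts and vessel cells, and with bulk DNA a change in the mix of cells and a change in methylation within a cell cannot be told apart. The study reported that crude fat content also differed between its full tender and tough groups, from which the sequenced animals were drawn. The part of fat content in these lists was not tested. The lists hold only peaks, so the labelled tissue could not be checked against marker genes, and genes at the regions were not analysed here.

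The 2 tender libraries left 4526538 and 4843388 tags after removal of repeats at 1 position, and the 2 tough libraries 3677473 and 3721723 tags. The 2 tender libraries therefore had more tags than both tough libraries. The share of tags left was 50.1% and 50.6% in tender and 41.5% and 47.7% in tough beef. The fragment length set in the peak calling was 179 and 196 bp in tender beef and 203 bp in both tough libraries, and in each list no peak was narrower than that length. The lowest pileup of a listed peak, the number of extended tags at the summit, was 5 in both tender and 4 in both tough libraries. At most 1 tag per position and strand was kept, which limits a pileup to 2 times the fragment length, and the highest pileups of 355, 386, 405 and 403 lay at 98.5% to 99.8% of that limit. The part of depth, fragment length and this limit in the results that follow was not tested.

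The number of peaks overlapped between tender and tough beef. HTE_1 held 11057 and HTE_2 12784 peaks, HTO_1 10178 and HTO_2 11879 peaks. The mean was 11920 ± 1221 (SD, n = 2) in tender and 11028 ± 1203 (SD, n = 2) in tough beef. The values overlapped, and the difference of -0.11 on the log2 scale gave p = 0.667 in an exact two-sided permutation test, whose smallest possible p with 2 animals against 2 is 0.333. Divided by the tags left, as peaks per 1000000 tags, the order turned, with 2443 and 2640 peaks in tender and 2768 and 3192 in tough beef (log2 difference 0.23, p = 0.333, the same exact permutation test), which did not overlap. Peaks with a pileup of 100 or more did not overlap either and went the other way, with 4215 in both tender libraries and 3952 and 3838 in the tough libraries (p = 0.333, the same exact permutation test).

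The regions were of 2 kinds, divided here at a mean pileup of 100, a value chosen after the data were seen. The 4377 regions at or above it (25.9%) were crowded. The median such region had 10 other regions within 10 kb, a fold enrichment over the local background of only 2.44, and 81.5% of them were called in all 4 libraries. The 12502 regions below it (74.1%) were mostly isolated, with no other region within 10 kb for 60.8% of them, a median fold enrichment of 7.10, and 29.2% called in all 4 libraries. Of the crowded regions, 3362 lay in 109 stretches of 10 or more on 28 chromosomes. The stretch with the most regions, chr27:28461402-28929293, held 168 of them, and none of these was called in both libraries of 1 group and neither of the other. The next, chr3:82708547-82912382, held 147, of which 7 were called in both tender libraries only and 2 in both tough libraries only.

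**Figure D1:**
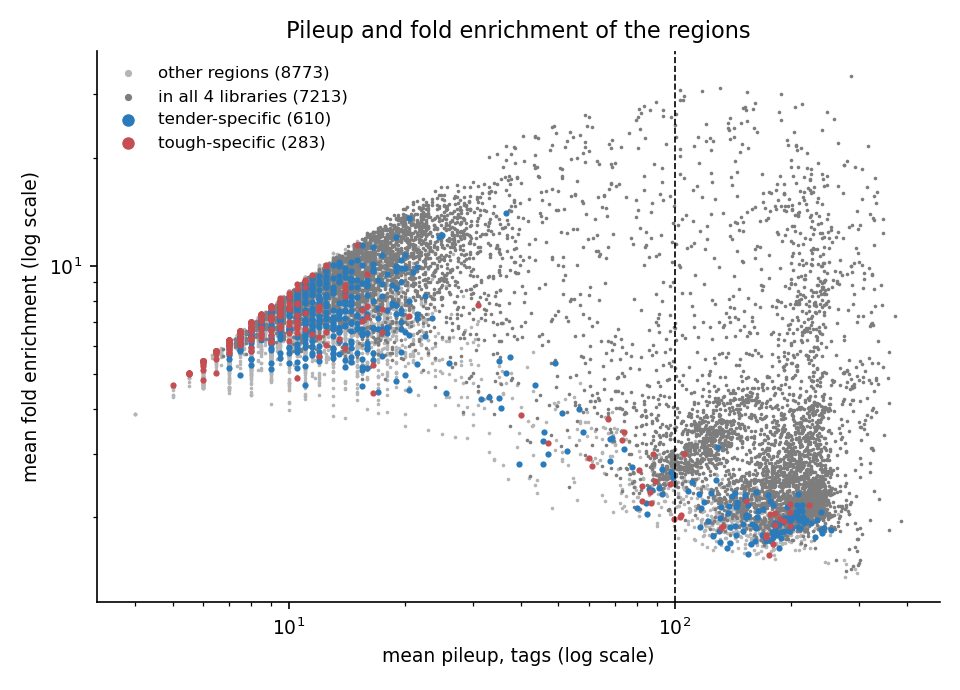
Each point is a region, with its mean pileup (tags, log scale) against its mean fold enrichment (log scale) over the libraries that called it, and the dashed line stands at a pileup of 100. The 610 tender-specific and 283 tough-specific regions lie along the lower and left edges of both clouds, where pileup or fold enrichment is low, while the 7213 regions called in all 4 libraries reach the highest values.

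Most regions were either in all 4 libraries or in 1. Of the 16879 regions, 7213 (42.7%) were called in all 4 libraries, 2067 (12.2%) in 3, 2463 (14.6%) in 2 and 5136 (30.4%) in 1. The regions in 1 library were unevenly divided, with 910 in HTE_1, 1906 in HTE_2, 786 in HTO_1 and 1534 in HTO_2. Replicate 2 of each group thus held more regions of its own than replicate 1 of either group. The median pileup was 9.0 for regions of 1 library and 97.8 for those of all 4.

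A total of 893 regions separated the groups by presence. Of these, 610 were called in both tender and neither tough library (tender-specific, 3.61% of all regions) and 283 in both tough and neither tender library (tough-specific, 1.68%). Tender-specific regions were 68.3% of the 893 (Wilson 95% interval 65.2 to 71.3, for counting error only, since regions of 1 library are not independent). The same libraries can be put in 2 crossed arrangements, each with 1 tender and 1 tough library on either side. HTE_1 and HTO_1 against HTE_2 and HTO_2 gave 944 regions, of which 748 were in HTE_2 and HTO_2. HTE_1 and HTO_2 against HTE_2 and HTO_1 gave 626. The tender and tough arrangement therefore had 0.946 times the larger crossed count and lay between the 2 crossed counts.

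When the same number of peaks was taken from each library, the tender and tough arrangement gave 788 regions, above the crossed counts of 674 and 579, or 1.17 times the larger. The tender share then fell to 53.3% (49.8 to 56.8), an interval that includes an even division. Among regions with a mean pileup under 100 the tender and tough arrangement gave 769 regions and the crossed ones 882 and 592. Among those of 100 or more it gave 124, against 62 and 34, which is 2.0 times the larger crossed count, and 105 of the 124 were tender-specific. That mean covers only the libraries that called a region, so a group-specific region passed the cut through its own group alone. Pileup is not scaled by depth and the tender libraries had more tags, so no conclusion is drawn from these counts. With 3 arrangements of 4 animals no permutation test of these counts can pass 0.05. Leaving out 1 library, so that 1 list stood for its group, gave 2316 regions without HTE_2 to 3028 without HTE_1, and the tender share ranged from 36.6% without HTO_1 to 83.1% without HTE_1.

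**Figure D2:**
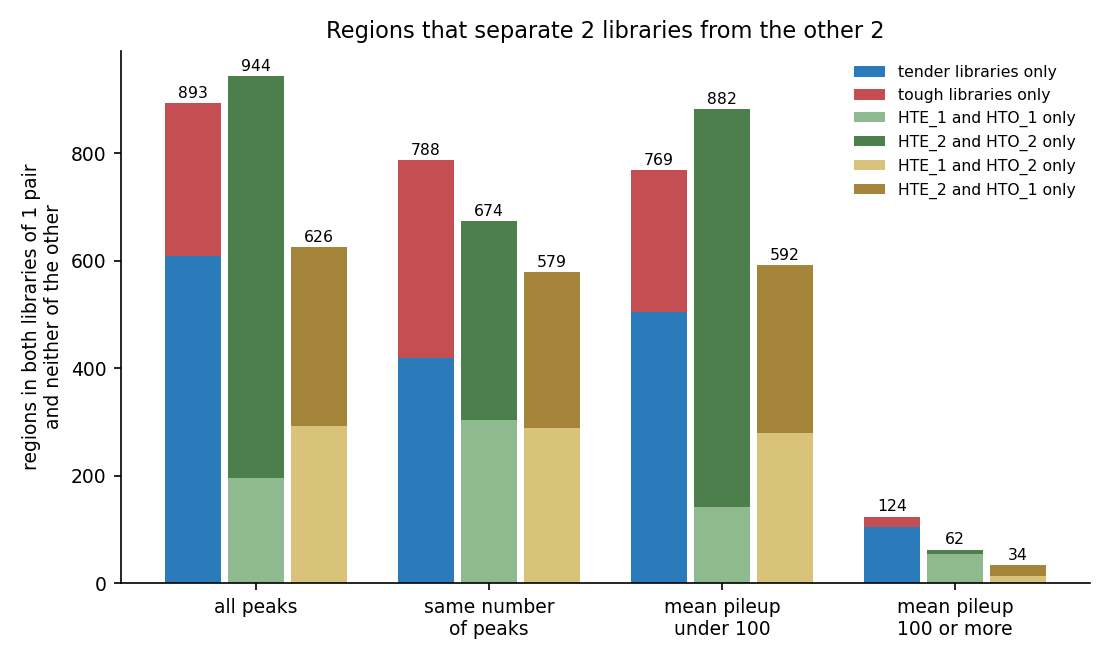
Bars give the number of regions called in both libraries of 1 pair and in neither of the other, for the tender and tough arrangement (left bar of each group) and the 2 crossed arrangements, with the 2 colours of a bar for the 2 directions. The tender and tough bar of 893 lies between the crossed bars of 944 and 626 with all peaks, and above both when the same number of peaks per library was taken (788) and at a mean pileup of 100 or more (124). That mean covers only the libraries that called a region.

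The tender-specific regions with the highest pileup were narrow peaks inside crowded stretches. The region at chr29:19410530-19410735 had a pileup of 240 in HTE_1 and 267 in HTE_2 and no peak in either tough library. Its fold enrichment was only 1.88 and 1.80, and 17 other regions lay within 10 kb. Both chr29:19407521-19407758 (pileup 228 and 255) and chr29:19442745-19442966 (225 and 263) were in the same neighbourhood. The remaining 2 of the first 5, chr6:45747020-45747222 (233 and 247) and chr13:49001412-49001611 (222 and 256), also had 13 and 16 regions within 10 kb. The list made from the merged tough libraries held no peak at any of these 5. When peaks up to 500 bp apart were joined, however, as many tough as tender libraries held a peak at each of the 5. At a fold enrichment of at least 3, which none of their peaks reached, none of the 5 stayed tender-specific.

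The tough-specific regions with the highest pileup were of the same kind. The region at chr8:56760735-56760942 had a pileup of 235 in HTO_1 and 210 in HTO_2, with a fold enrichment of 2.15 and 2.17 and 15 regions within 10 kb. The other regions named by the same rule were chr7:110036984-110037193 (213 and 186), chr4:98727061-98727286 (216 and 183), chr9:45044637-45044884 (205 and 194) and chr8:110711631-110711834 (203 and 182). At chr7, chr4 and chr9 the merged tender list did hold a peak, whereas at both regions of chromosome 8 it did not. When peaks up to 500 bp apart were joined, the chr9 region was no longer tough-specific and the others were. At a fold enrichment of at least 3 none of them stayed tough-specific.

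At a mean pileup under 100, the group-specific regions had lower medians than the regions called in all 4 libraries. The 505 tender-specific regions with a mean pileup under 100 had a median pileup of 11.5 and a median fold enrichment of 7.0, and the 264 tough-specific ones 8.0 and 6.50. Over all 12502 regions under 100, which include those called in all 4 libraries, the medians were 11 and 7.10. In the 4 crossed classes they were 9 to 10 and 6.79 to 6.98. The tender-specific median pileup thus lay above those of the crossed classes and the tough-specific one below them. Regions called in all 4 libraries and under 100 had a median pileup of 17.2 and a fold enrichment of 9.02. The highest fold enrichments among the tender-specific regions, chosen after their values were seen, were at chr15:65081511-65081926, with a pileup of 20 and 21 and a fold enrichment of 13.5 and 13.7, and at chr15:85048817-85049171, with 28 and 45 and a fold enrichment of 12.4 and 15.6. Both had a peak in all 4 medium libraries. The first had a peak in the merged tough list and the second did not. Among the tough-specific regions, chr2:88052236-88052472 was first, with a pileup of 15 in both libraries and a fold enrichment of 11.6 and 11.4, and it had a peak in the merged tender list.

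Absence from both lists did not mean absence of signal. Of the 610 tender-specific regions, 372 (61.0%) had a peak in the list called on the merged tough libraries, and of the 283 tough-specific regions, 216 (76.3%) had a peak in the list called on the merged tender libraries. The merged lists hold the same reads pooled and add no animals, and they were called with another version of MACS2 and another effective genome size, so the part of depth in these shares was not tested.

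The medium eluate of the same groups was then read at these regions. Of the tender-specific regions, 31 had a peak in both tender and neither tough medium library and 7 the other way. Of the tough-specific regions, 5 had a peak in both tender medium libraries only and 29 in both tough ones only. Over all 16879 regions these counts were 424 and 326. The crossed classes gave 16 and 13 for HTE_2 with HTO_2, 3 and 6 for HTE_1 with HTO_1, 8 and 4 for HTE_1 with HTO_2, and 10 and 9 for HTE_2 with HTO_1. The medium eluate thus leaned the same way as the high eluate for both group-specific classes, although most of these regions, 320 of 610 and 148 of 283, were called in all 4 medium libraries. In the low eluate both classes leaned to tough, with 2 against 44 and 0 against 37, and so did all regions, with 20 against 1514. The eluates were taken in turn from 1 capture of each DNA sample, so they are further measurements and not further animals.

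Along the genome, group-specific regions made up 3.21 to 7.39 of every 100 regions of a chromosome. They were most frequent on chromosome 17 (7.39), chromosome 16 (7.21) and chromosome 22 (6.85) and least on chromosome 20 (3.21), chromosome 27 (3.36) and chromosome 12 (3.70). The tender-specific share was highest on chromosome 6, with 35 tender-specific against 6 tough-specific regions (85.4%, Wilson 95% interval 71.6 to 93.1), and lowest on chromosome 12, with 8 against 9 (47.1%, 26.2 to 69.0). The place of chromosome 6 rested on crowded regions. Under a mean pileup of 100 it had 21 against 6, while chromosome 18 had 29 against 6.

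In windows of 1 Mb, 49 windows held 3 or more tender-specific and 4 windows 3 or more tough-specific regions. With the same number of peaks taken from each library the windows were 27 and 12. The sum of 53 with all peaks lay between the crossed sums of 56 and 16. The window chr17:73000001-74000000 had the most, 9 tender-specific of 67 regions, all with a mean pileup of 8.5 to 20.5. It held 37 and 53 peaks in the tender and 28 and 43 in the tough libraries, so the peak numbers overlapped. The window chr3:82000001-83000000 held 7 of 148 regions, all of them in the crowded stretch of that chromosome. The window chr5:120000001-121000000 held 7 of 65, none of them crowded. Among tough-specific regions, which were 1.68% of all regions, chr27:28000001-29000000 held 4 of 261 regions, beside 2 tender-specific ones. The windows chr2:136000001-137000000, chr7:54000001-55000000 and chr29:49000001-50000000 held 3 each, of 37, 12 and 46 regions. The last of these also held 2 tender-specific regions.

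The 7213 regions called in all 4 libraries allow the strength of capture to be compared. The order of pileup was close to the same in all libraries. Spearman's rho over these regions was 0.972 between the tender libraries, 0.970 between the tough libraries and 0.964 to 0.970 across groups, as a description over regions that share their libraries. The median difference in rank, in percentiles within a library, was 2.99 between the tender, 3.08 between the tough and 3.20 to 3.51 between tender and tough libraries. The order was looser among regions with a mean pileup under 100 (rho 0.779 to 0.822) than at 100 or more (0.939 to 0.960).

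At 2808 of these regions (38.9%) the pileup ranks of the groups did not overlap. Both tough ranks lay above both tender ranks at 1427 regions (19.8%), and both tender ranks above both tough ranks at 1381 (19.1%). Ranks have the same mean in every library, so a near balance of the directions is built into this measure. The crossed arrangements gave 32.1% and 28.9%. The gap was wider at a mean pileup of 100 or more, with 41.5% against 30.5% and 27.7%, than under 100, with 36.5% against 33.5% and 30.0%. Ranks of fold enrichment gave 38.7% against 32.8% and 28.1%. With percentiles among all peaks of a library, which move with the number of weak peaks listed, tender and tough gave 21.8% (709 regions above in tough, 867 above in tender beef) and HTE_1 with HTO_1 against HTE_2 with HTO_2 gave 63.3%. Most rank differences were small, with a median of 2.56 percentiles between the group means and 11.8 at the 95th percentile.

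The regions with the largest rank differences were mostly weak peaks in both groups. At chr12:90803858-90804678 the pileup was 13 and 12 in the tender and 25 and 40 in the tough libraries, which raised the mean rank by 30.7 percentiles in tough beef. At chr3:118262199-118262554 it was 8 and 9 against 20 and 17, and at its neighbour chr3:118261396-118261772 it was 11 and 9 against 23 and 16. The other 2 of this direction were chr23:38270902-38271432, with 10 and 22 against 30 and 36, and chr4:113952699-113953357, with 9 and 21 against 25 and 29. In the opposite direction, chr21:4348866-4349316 had a pileup of 50 and 30 in the tender and 10 and 9 in the tough libraries, a rank difference of -32.3. The regions chr24:28759859-28760281 (20 and 25 against 8 and 6) and chr9:100029779-100030144 (21 and 26 against 6 and 11) followed. The last 2 of this direction were strong peaks, described next.

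Pileup differed between tender and tough beef at 66 of the 7213 regions (0.915%) in limma on quantile-normalised log2 pileup, at a Benjamini-Hochberg adjusted p under 0.05. It was higher in tough beef at 30 and higher in tender beef at 36. At an unadjusted p under 0.05 there were 712 regions. The difference ranged from 0.19 to 1.58 on the log2 scale at the 30 regions (median 0.61) and from -0.16 to -1.75 at the 36 (median -0.56). Of the 66, 34 had a mean pileup of 100 or more (14 and 20). At all 66 the pileup ranks of the 2 groups did not overlap, against 38.9% of all 7213 regions. Since limma chose the 66 on the same values, that count is no further evidence.

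**Figure D3:**
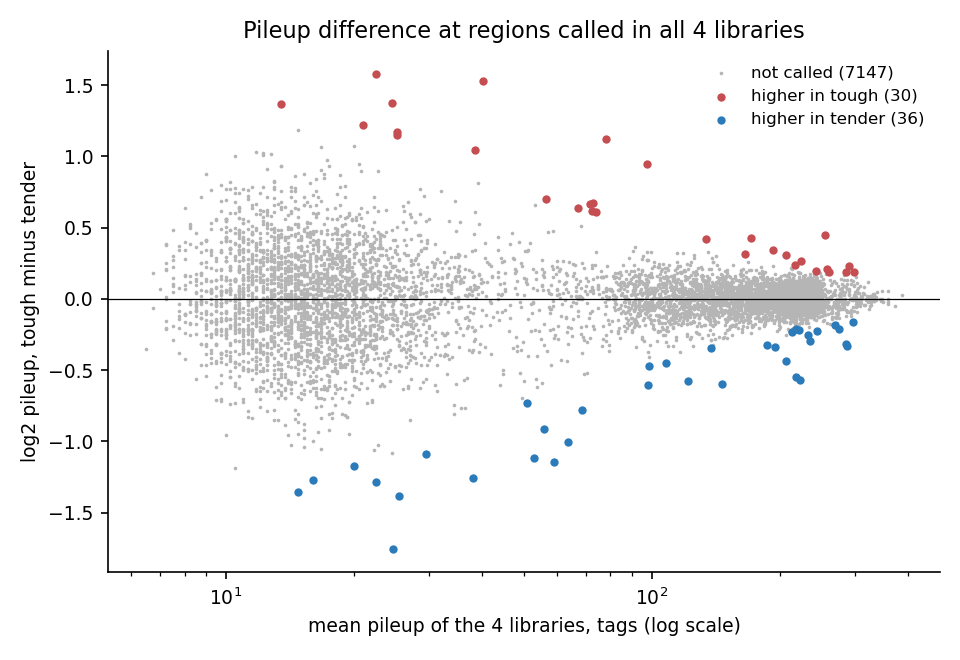
Each point is 1 of the 7213 regions called in all 4 libraries, with its mean pileup (tags, log scale) against the quantile-normalised log2 pileup of tough minus tender beef. The spread of the 7147 grey points narrows as pileup rises. The coloured regions of 30 (tough) and 36 (tender) reach differences above 1 in size only at a mean pileup under 100. Differences as small as 0.19 and -0.16 are called where pileup is high.

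The call depended on the fit. After centring each library on its median in place of quantile normalisation limma called 30 regions, 28 of them among the 66, and the balance moved to 9 higher in tough and 21 in tender beef. With fold enrichment in place of pileup limma called 0 regions (638 at an unadjusted p under 0.05, smallest adjusted p 0.113), and 54 of the 66 kept their sign. The differences were also smaller on that scale. At chr9:65873472-65874047, the region with the smallest p, the log2 difference went from -0.57 to -0.08, at chr11:14312021-14313165 from 0.45 to 0.17, at chr10:104032733-104033424 from 0.95 to 0.24 and at chr10:96714120-96714425 from 1.12 to 0.57. In limma fits without any 1 of HTE_1, HTE_2, HTO_1 and HTO_2, 0 regions were called (366 to 525 at an unadjusted p under 0.05). In these fits the difference ran from -0.51 to -0.62 at chr9:65873472-65874047 and from 1.02 to 1.26 at chr10:96714120-96714425. It ran from 0.42 to 0.49 at chr11:14312021-14313165 and from 0.90 to 1.02 at chr10:104032733-104033424. At chr1:61603253-61604789 it was -0.55 with all 4 libraries, -0.40 without HTO_1 and -0.69 without HTO_2. These regions were chosen by the smallest limma p on the same values, so the sizes kept are no further evidence.

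Among the 5 regions with the smallest limma p, 2 were higher in tender and 3 in tough beef. At chr9:65873472-65874047 the pileup was 253 and 286 in the tender and 176 and 179 in the tough libraries (log2 difference -0.57, SE 0.057, adjusted p = 3.77e-09, limma). The region 53 bp before it, chr9:65872476-65873418, had 290 and 341 against 245 and 273 and was also called (log2 difference -0.33). At chr1:61603253-61604789 the pileup was 251 and 272 in the tender and 162 and 187 in the tough libraries (log2 difference -0.55, SE 0.065, adjusted p = 2.08e-07, limma). Its fold enrichment went slightly the other way, with 9.43 and 8.93 in tender and 9.96 and 9.49 in tough beef. Its width of 1509 and 1537 bp in tender and 1495 and 1493 bp in tough beef differed little.

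Higher pileup in tough beef was led by chromosomes 11 and 10. At chr11:14312021-14313165 it was 202 and 229 in the tender and 301 and 287 in the tough libraries (log2 difference 0.45, SE 0.050, adjusted p = 7.25e-08, limma). In the medium eluate this region had a pileup of 221 and 218 against 278 and 294. In the low eluate it was 160 and 174 against 229 and 220. Pileup is not scaled by depth, and in the study's mapped reads both tough libraries exceeded both tender ones in the medium and low eluates. By rank within a library, both tough values also lay above both tender values in both eluates. At chr9:65873472-65874047 and chr1:61603253-61604789 low eluate pileup overlapped between groups, while both tender ranks lay above both tough ranks. At chr10:104032733-104033424 the pileup was 68 and 71 in the tender and 126 and 125 in the tough libraries (log2 difference 0.95, SE 0.12, adjusted p = 9.38e-07, limma). In the medium eluate it was 37 and 38 against 131 and 136, and in the low eluate 11 and 10 against 43 and 38. A called neighbour, chr10:104033509-104033777, had 18 and 29 against 58 and 56. The fifth region, chr10:96714120-96714425, had 45 and 61 against 108 and 99 (log2 difference 1.12, SE 0.15, adjusted p = 1.91e-06, limma).

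**Figure D4:**
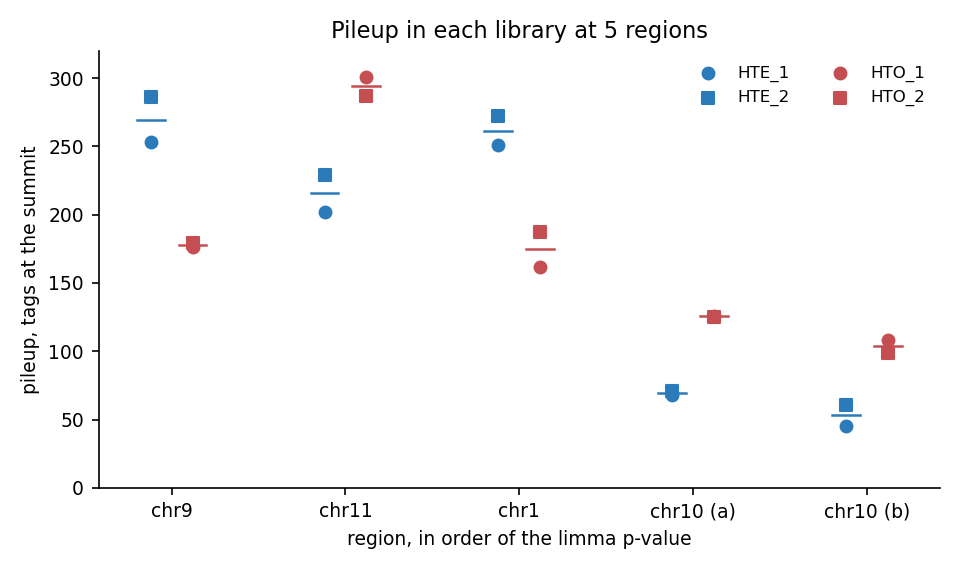
Pileup (tags at the summit, axis from 0) in each of the 4 libraries at the 5 regions with the smallest limma p, circles for replicate 1 and squares for replicate 2, with a line at the mean of each pair. The tender pair lies above the tough pair at the chr9 and chr1 regions, and the tough pair above the tender pair at the chr11 region and both chr10 regions.

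The last region is 1 of a run of 7 called neighbours, singled out after its values were seen. Between 96711265 and 96719875 on chromosome 10, a span of 8611 bp, there were 9 regions. The 7 regions called in all 4 libraries were all called higher in tough beef by limma, with log2 differences of 0.61 to 1.12. After median centring 3 of the 7 were called, and with fold enrichment 0. Their pileup ran from 40 to 59 in HTE_1, from 52 to 71 in HTE_2, from 61 to 108 in HTO_1 and from 73 to 99 in HTO_2. At each of the 7 both tough values lay above both tender values, which a call on the same values makes likely. Of the other 2 regions of the span, 1 was called in HTE_2 and both tough libraries and 1 was tough-specific.

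In the medium eluate of this run all 7 regions had a peak in both tough libraries, with a median pileup of 99 in MTO_1 and 98 in MTO_2. MTE_1 had a peak at 1 of the 7 regions, with a pileup of 45, and MTE_2 at 4, with a median of 38.5. In the low eluate LTO_1 had a peak at 2 and LTO_2 at 1, and neither tender library had any, so most of the run had no low eluate peak in either group. The study's mapped reads were higher in the tough libraries of the medium and low eluates, and the part of depth was not tested. The fold enrichment in the high eluate overlapped between groups at most of the 7 regions. At chr10:96711265-96711543 it was 3.90 and 4.26 in tender and 4.07 and 4.20 in tough beef. It also overlapped at chr10:96713344-96713621, chr10:96714681-96714923 and chr10:96715714-96715943. At the remaining regions of the 7 both tough values lay above both tender values.

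**Figure D5:**
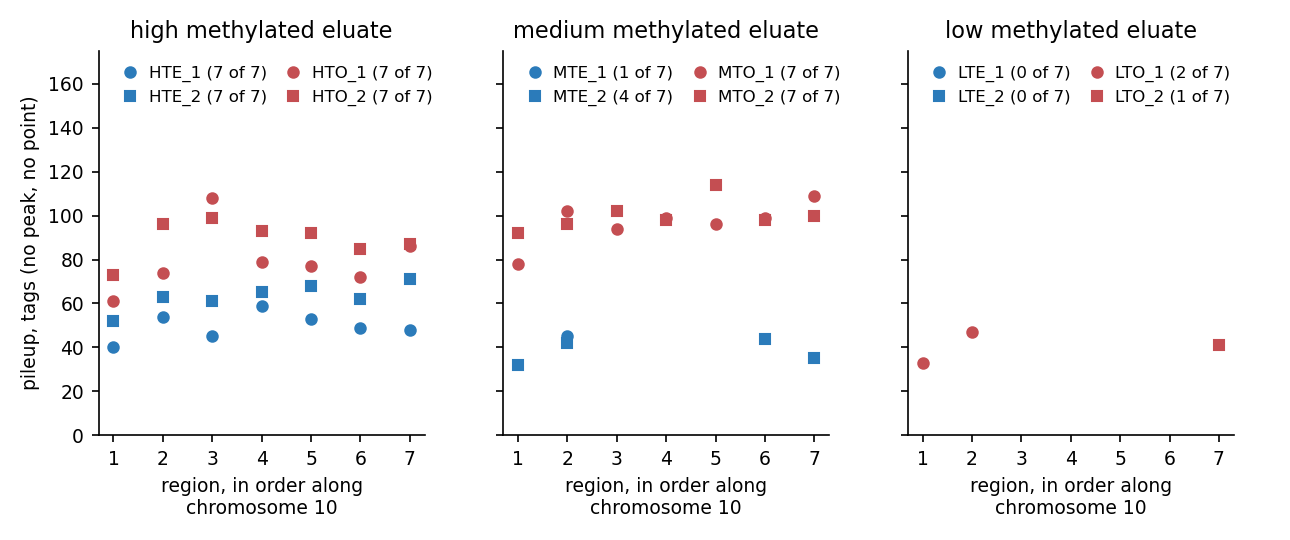
Pileup (tags, axis from 0) at the 7 regions of the chromosome 10 run in the high, medium and low methylated eluates, with tender libraries in blue and tough libraries in red, and no point where a library has no peak. The legends give the number of the 7 regions with a peak, which is 7 in every library of the high eluate, 1 and 4 in tender against 7 and 7 in tough libraries of the medium eluate, and 0 and 0 against 2 and 1 in the low eluate.

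Of 13 neighbouring pairs of called regions within 100 kb, 12 had the same direction. The run on chromosome 10 gave 6 of these pairs, and 6 of the other 7 had the same direction. Over all 4673 neighbouring pairs of the 7213 regions within 100 kb, called or not, the sign of the difference was the same in 55.1%. These pairs were not matched to the called ones for distance or size of difference. Gaps in the called pairs were as small as 53 and 84 bp, where neighbours share fragments. Chromosome 10 held 9 of the 30 regions higher in tough beef, 7 of them in the run, chromosome 24 held 4 and chromosome 28 held 4. The 36 regions higher in tender beef were spread over 20 chromosomes, with 4 on chromosome 7 at most. No other region lay within 10 kb of 15 of these 36, and of 6 of the 30, against 32.6% of all 7213.

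The direction in the medium eluate was mostly the same at the called regions. Of the 30 regions higher in tough beef, 21 had a peak in all 4 medium libraries. At 18 of these 21 both tough ranks lay above both tender ranks in the medium eluate and at 1 the reverse held. Over all 6509 regions called in the 4 high and 4 medium libraries, both tough ranks were above at 38.7%. Of the 36 regions higher in tender beef, 34 were called in all 4 medium libraries. Both tender ranks lay above both tough ranks at 27 of these and below at 4, against 26.5% above over all 6509. In the low eluate the first direction held at 12 of 13 regions (23.7% over all 3213 regions called in the 4 high and 4 low libraries) and the second at 19 of 30 (21.6%). No test over regions was made, since neighbours share fragments and the eluates share animals.

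The width of peaks was less even than their pileup and gave no called region. The median number of base pairs under peaks at the 7213 regions was 305 and 340 in the tender and 316 and 329 in the tough libraries. In limma on centred log2 width, 0 regions passed an adjusted p under 0.05 (0.0% of 7213, 455 at an unadjusted p under 0.05, smallest adjusted p 0.236). When only the regions of mean pileup of 100 or more were fitted, limma called 10, of which 4 were wider in tough and 6 in tender beef, and it also called 10 among the regions above the median of mean pileup. Widths did not overlap between the groups at 2338 regions (32.4%), while the crossed arrangements gave 43.4% and 24.2%. At 2319 of the 3128 regions of the former, both replicates 1, which had fewer peaks, were the wider ones after centring.

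The 5 regions with the smallest limma p for width show sizes of difference that were not called. At chr4:119912557-119913270 the width was 655 and 671 bp in the tender and 203 and 225 bp in the tough libraries, where 203 bp is the least width possible in the tough lists (log2 difference -1.64, SE 0.13, adjusted p = 0.236, limma). The pileup there was 16 and 20 against 8 and 11. At chr3:24218287-24218868 it was 473 and 558 bp against 211 and 209 bp, and at chr12:34892117-34893186 it was 874 and 1020 bp against 515 and 536 bp. The wider peaks were those of tough beef at chr2:105858586-105859077, with 183 and 204 bp against 452 and 485 bp, and at chr3:64418936-64419481, with 228 and 252 bp against 529 and 540 bp. The adjusted p was the same for all 5 in limma, 0.236.

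At the called pileup differences, width mostly moved the same way or overlapped. Widths did not overlap and went in the direction of the pileup at 15 of the 30 regions higher in tough and at 19 of the 36 higher in tender beef, and in the opposite direction at 1 and 2. Over all 7213 regions 17.4% were wider in both tough and 15.0% wider in both tender libraries. Over all 7213 regions the correlation of the pileup difference with the width difference was 0.349 (Pearson), a description across regions of the same 4 libraries.

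The highest mean pileup rank was at chr24:56942803-56943387, with 355, 385, 405 and 403 tags in HTE_1, HTE_2, HTO_1 and HTO_2, values at or near the limit set by the fragment length of each library, at which a difference between groups cannot be seen. It was followed by chr2:70592761-70595014, with 348, 386, 370 and 383, and chr14:396461-397030, with 340, 367, 371 and 359. The widest region called in all 4 was chr11:13094983-13099658, with 4067 and 4416 bp under peaks in the tender and 4591 and 4493 bp in the tough libraries. At chr3:95023290-95026086 the widths were 2684 and 2771 bp against 2791 and 2783 bp, and at chr2:8751427-8753874 they were 2198 and 2387 bp against 2314 and 2127 bp. Their rank differences between tough and tender beef were 1.33, -0.48 and 3.42 percentiles.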

How the data were processed

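MBD-seq peak lists of 4 libraries of longissimus muscle of Angus steers, 2 tender and 2 tough, were analysed. Per the study's methods and the file headers, the authors ran SOAPnuke on 50 bp reads, mapped the clean reads with BWA (0.7.7 in the submitters' processing notes) to bosTau8, kept uniquely mapped reads and called peaks per library with MACS2 2.1.1.20160309 at q 0.01, with no control, 1 tag per position and an effective genome size of 2600000000 bp. The merged lists used MACS2 2.1.0.20150731 and 2660939081 bp. The deposited pileup is a signal, the number of extended tags at a peak's summit, with no scaling by depth. The deposited fold enrichment is the ratio of that pileup to MACS2's estimate of background around the peak, with 1 added to both. This lowers it most where the background is low. The deposited −log10 p and −log10 q values of each peak served for filters. Reads per region were not used here, so the study's DESeq test on read counts was not repeated. The sources name the muscle longissimus dorsi and longissimus lumborum, and they give the order of the salt steps in different ways, so no salt level is attached to the eluate.

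Peaks sharing 1 bp or more were joined (Python 3.11.15, pandas 2.3.3), and the joining gave the regions of bedtools 2.31.1. Per region and library, the largest pileup, the largest fold enrichment and the summed width were kept. Regions in all 4 libraries were fitted with limma 3.58.1 (trend, Benjamini-Hochberg adjusted, threshold 0.05) on log2 values, pileup after quantile normalisation and width after centring on the library median. The fits were tested on simulated data with independent normal noise in each region. That cannot show whether the p-values hold for these libraries. Regions were named by rank of pileup percentile, rank difference, limma p, pileup rank and width, the first 5 or 3 of each, and any other choice is given in the text. The members and the rules were chosen with earlier results of these data known. Groups came from the labels, and all p-values rest on 2 animals per group. The limma p-values do not measure the spread between these animals alone. Their variance is drawn towards a trend over all fitted regions of the same 4 libraries. The weight of that trend was 42.5 prior degrees of freedom for pileup and 3.43 for width. Chromosome X and the mitochondrial chromosome were left out. The build of the gene table at hand differed from bosTau8, so gene names and sequences were not used here.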

Additional observations from a re-analysis of the deposited data

Results flagged for a closer look

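Peaks on the mitochondrial chromosome, which the comparisons left out, were 4 in HTE_1 and 3 in HTE_2 against 1 in each tough library. These peaks are listed because they lie outside the chromosomes compared and the 4 in HTE_1 pass the limit of 3 set for an unexamined signal, which says nothing about the groups. The difference between groups was not tested.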

How the results depend on the processing

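The log2 difference in peak number, -0.11 with values that overlapped, turned to 0.23 when peaks were divided by the tags left. It was -0.008 without HTE_2 and -0.001 without HTO_1. The 893 group-specific regions became 124 at a mean pileup of 100 or more (an alternative chosen after the data were seen, like that under 100), 8540 in the merged lists and 2316 to 3028 without 1 library. Their ratio to the larger crossed count, 0.946, turned to 1.17 with equal numbers of peaks in all libraries and to 2.0 at a mean pileup of 100 or more. That mean covers only the libraries that called a region, so a group-specific region passed the cut through its own group alone. The tender share moved to 75.8% at −log10 q of at least 5, 64.0% at a fold enrichment of at least 3, 53.3% with the same number of peaks and 84.7% at a mean pileup of 100 or more, and ranged from 36.6% to 83.1% without 1 library. The 53 windows became 10 at a mean pileup of 100 or more and 215 to 301 without 1 library. The 2808 regions with no overlap in rank became 1576 with percentiles among all peaks, 1482 and 1329 at a mean pileup of 100 or more and under 100, where fewer regions were compared, and 4960 to 5122 without 1 library.

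limma called 66 regions for pileup, 30 after median centring, 0 with fold enrichment, 43 above the median of mean pileup, 34 at −log10 q of at least 5, 26 with peaks up to 500 bp apart joined, 35 under a mean pileup of 100, 35 at 100 or more and 0 in each fit without 1 library, in which the lone library was assumed to vary like the other group. For width limma called 10 above the median of mean pileup and 10 at a mean pileup of 100 or more, and 0 in every other fit. With the replicate number as a block, 34 regions were called for pileup (12 higher in tough, 22 in tender beef), all among the 66 and 1 of them in the chromosome 10 run of 7, and 0 for width. The numbers mark different animals, only 2 pairs exist, and the deviations of same-numbered libraries correlated at 0.197 for pileup and 0.0556 for width over regions, so the numbers were not taken as a pairing. At chr1:61603253-61604789 fold enrichment gave a log2 difference of 0.18 and a rank difference of 8.19, opposite to pileup. The cause of these changes was not tested. Weak peaks rest on few tags, with a lowest pileup of 5 in the tender and 4 in the tough libraries.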
